A study of Mus musculus with 2 samples.

Results

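The SoxB genes are the mouse transcription factor genes Sox1, Sox2 and Sox3 (group SoxB1) and Sox14 and Sox21 (group SoxB2). They were taken as every non-control probe of the array whose gene name was among these 5, out of 24103 named genes, and 7 probes of 60 bases represented them. Total RNA from the tooth and from the skin of wild-type (WT) mice, both labelled as postnatal day 0, was hybridised to 1 single-colour Agilent mouse array per tissue. The study's methods gave an age 1 day later than the labels, which were followed here, and the labels do not say how many animals contributed to each array. No gene was deleted and no agent was given in either group.

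Sox proteins bind DNA through a high-mobility-group domain and usually act beside a partner factor on a neighbouring site, for example a POU-domain protein or Pax6. SoxB1 proteins mostly activate transcription and keep neural and other progenitors in an undifferentiated state, whereas SoxB2 proteins mostly repress it and can oppose them on the same sites. In ectodermal organs, Sox2 is known from the epithelial stem cells of the incisor and from the dermal papilla and touch receptor cells of the skin, and Sox21 from the cuticle of the hair shaft and from the dental epithelium. SoxB genes consist of a single exon.

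The 60 bases that each spot measured are shown first, because every statement on a SoxB gene rests on 1 or 2 of them and the pair for Sox1 gave opposite results. All are from the deposited array annotation, which uses build mm9, and read 5′ to 3′ along the transcript. Capitals mark the polyadenylation hexamer AATAAA, found in 1 of the 7 SoxB probes and in 13.4% of all named probes.

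Sox1 probe 1: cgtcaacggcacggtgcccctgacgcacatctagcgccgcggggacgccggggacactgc
Sox1 probe 2: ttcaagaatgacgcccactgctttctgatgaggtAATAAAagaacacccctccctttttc
Sox2 probe: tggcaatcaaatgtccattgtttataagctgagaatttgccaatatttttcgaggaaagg
Sox3 probe: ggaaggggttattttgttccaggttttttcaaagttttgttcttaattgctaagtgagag
Sox14 probe: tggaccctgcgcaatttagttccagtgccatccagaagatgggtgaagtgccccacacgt
Sox21 probe 1: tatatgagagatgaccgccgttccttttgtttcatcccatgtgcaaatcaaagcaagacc
Sox21 probe 2: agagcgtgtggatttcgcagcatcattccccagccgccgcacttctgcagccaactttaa

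The Sox1 probes lie at chr8:12397503-12397562 and chr8:12399496-12399555 on the plus strand, and the Sox2 probe at chr3:34550773-34550832 on the plus strand. On the minus strand lie the Sox3 probe (chrX:58144564-58144623), the Sox14 probe (chr9:99775629-99775688) and the Sox21 probes (chr14:118633351-118633410 and chr14:118633788-118633847). The longest run of bases that any of the 7 shared with a same-strand probe of another gene was 15, and with a probe of another SoxB gene 7. GC content was 73.3% in Sox1 probe 1 and 55.0% in the Sox14 probe and Sox21 probe 2. It was 43.3% in Sox1 probe 2 and Sox21 probe 1, and 35.0% in the probes of Sox2 and Sox3. Whether a probe lies in coding sequence or in a UTR was not analysed here.

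With 1 array per tissue there is no spread between animals, so values are described without a test and no difference has a replicate check. Where an error is given, it is the extraction software's estimate for 1 spot, which leaves out dissection, RNA preparation and labelling. The extraction software called 56.7% of 55675 probes well above background in tooth and 52.5% in skin. The signal's 75th percentile was 428 in tooth against 276 in skin, and dividing by it raised skin relative to tooth by 0.63 on the log2 scale. The 8 spike-in control transcripts well above background in both tissues had a median skin minus tooth difference of -0.01 before scaling. Scaling on them changed every difference by -0.62 and moved the median over all measured named genes from -0.04 to -0.67. The 10086 probes without measurable signal on either array, for which the software printed a substitute value, had a median scaled difference of 0.76. A scaled difference of about this size was thus present where no signal was measured. Fewer cells of a type and less RNA per cell cannot be told apart in such bulk samples.

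A probe well above background in 1 tissue or more was found for 4 of the 5 SoxB genes, against 71.8% of all named genes. Sox1, Sox2 and Sox21 were detected in both tissues, Sox14 in tooth only, and Sox3 in neither. By the brightest probe and with 75th percentile scaling, 0 of these 4 were at least 2-fold higher in tooth and 0 in skin. The shares over all measured named genes were 15.5% and 14.2%, and Sox14 had no measurable fold.

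Sox21, a SoxB2 repressor, was well above background with both probes in both tissues. The first probe read 988 ± 98.9 in tooth and 882 ± 88.3 in skin (processed intensity ± error estimate, 1 spot each). The second read 394 ± 39.7 in tooth and 290.4 ± 29.5 in skin. In unscaled signal tooth was thus the higher tissue with both probes, by 1.12-fold and 1.36-fold. After scaling to the 75th percentile, the first probe stood at 1.21 (tooth) and 1.68 (skin), and skin minus tooth was 0.47 ± 0.20 (log2), which is 1.38-fold higher in skin. The second was at -0.12 and 0.07, a difference of 0.19 ± 0.21. The direction for Sox21 depended on the scaling, since with spike-in scaling the differences were -0.16 and -0.43, both higher in tooth. The 2 probes differed from each other by 0.28, and 47.8% of the 3280 genes with exactly 2 probes well above background on both arrays had a gap at least as large. The plot of SoxB signals by probe shows Sox21 far above the negative controls and close in both tissues.

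**Figure D1:**
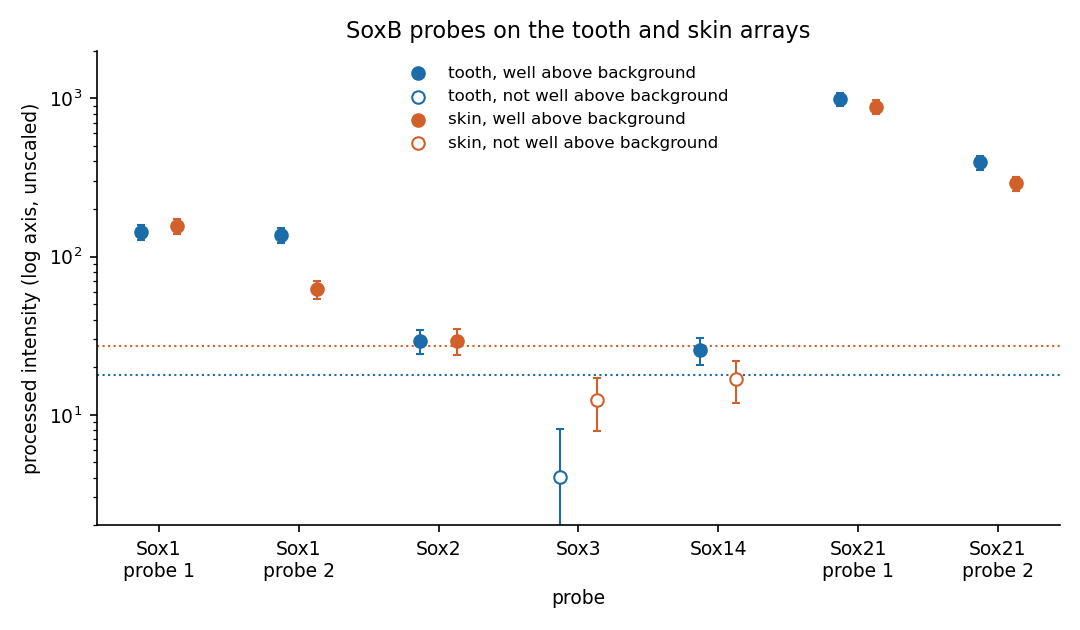
Processed intensity (log axis, not scaled between arrays) of the 7 SoxB probes on the tooth array (blue) and the skin array (orange), with the extraction software's error estimate for the spot as bars and open circles for spots not well above background. Dotted lines mark the brightest of 308 negative-control spots on each array (17.8 in tooth, 27.0 in skin). Sox21 and Sox1 lie above both lines, Sox2 lies just above them, and Sox3 and the skin value of Sox14 lie below the skin line. The lower bar of Sox3 in tooth leaves the axis because its error exceeds its value.

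Sox2, the SoxB1 factor of pluripotent and epithelial stem cells, was dim and equal in the unscaled signal of both tissues. Its only probe read 29.3 ± 5.03 in tooth and 29.4 ± 5.42 in skin, above the brightest negative control on each array (17.8 and 27.0). Scaling placed it at -3.87 in tooth and -3.23 in skin, so that skin minus tooth was 0.64 ± 0.36 (log2). This is close to the 0.63 that scaling added, and with spike-in scaling the difference was 0.01. A difference smaller than this error was not detectable at this signal.

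Sox1, a SoxB1 factor of the neural tube and the lens, was well above background with both probes, but the probes disagreed. Probe 1 read 143 ± 14.8 in tooth and 155 ± 16.1 in skin. Probe 2, which lies further along the transcript (position 3977 against 1984 in the array's reference transcript), read 137 ± 14.7 in tooth and 62.0 ± 8.40 in skin. The signal of probe 2 in tooth was therefore 2.21 times that in skin before scaling, whereas probe 1 was nearly level. The scaled differences were 0.75 ± 0.21 for probe 1 and -0.51 ± 0.25 for probe 2 (log2). With spike-in scaling they were 0.13 and -1.14. The gap between the probes was 1.27, a size reached by 187 of the 3280 genes with 2 such probes (5.70%). The GC content of the probes also differed. Of the 27 named probes with a GC content within 2 percentage points of probe 1, 81.5% were well above background on both arrays. The median difference of these was 0.32. Of the 11451 near probe 2, 60.2% were well above background on both arrays, and the median difference of these was 0.01. The part of base composition in the Sox1 values was not tested, and no direction is given for Sox1.

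Sox14, the other SoxB2 gene and a factor of defined interneurons, was at the edge of detection. It read 25.6 ± 5.04 in tooth, where it exceeded all 308 negative controls, and 16.9 ± 4.91 in skin, where 5 of 308 were as bright or brighter and the probe was not well above background. After scaling the values were -4.06 and -4.03. Against the lowest signal called well above background in skin (-3.73), the tooth value gave no fold, so Sox14 was detected in tooth without a measurable difference.

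Sox3, the X-linked SoxB1 gene of the hypothalamus and pituitary, was not well above background in either tissue. Tooth held a substitute value of 4.05, below 261 of 308 negative controls, and skin 12.5 ± 4.65, with 6 of 308 negative controls as bright or brighter. A transcript below the level that the array can separate from background would give the same values.

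**Figure D2:**
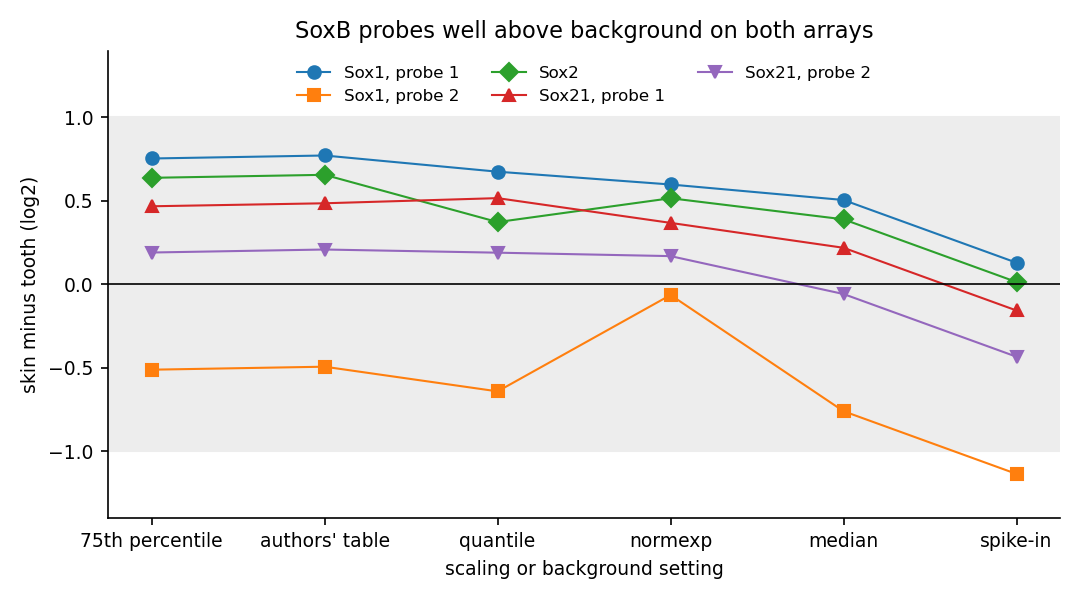
Skin minus tooth difference (log2) of the 5 SoxB probes well above background on both arrays, under 6 ways of scaling the arrays or correcting background. The shaded band spans 2-fold in either direction. Sox21 probe 1 moves from 0.47 with the 75th percentile to -0.16 with spike-ins, Sox2 from 0.64 to 0.01, and the Sox1 probes keep opposite signs under every setting shown.

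The plot of differences by setting shows the order of these moves. Sox21 probe 1 stayed between 0.22 and 0.52 with the other settings shown and turned negative with spike-ins only. Sox21 probe 2 was already at -0.06 when the arrays were set to their medians. Sox1 probe 2 was below 0 throughout, from -0.06 with normexp background correction to -1.14 with spike-ins, and was the only one of these 5 probes to pass 2-fold under any of them.

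The remaining 15 Sox genes served as comparison, since several share tissues and binding sites with SoxB. A probe well above background in 1 tissue or more was found for 12 of them, against 71.8% of all named genes. A total of 2 were at least 2-fold higher in tooth and 5 in skin, against 15.5% and 14.2% of measured named genes. The SoxC gene Sox11, a factor of immature neurons and mesenchyme, read 1.52 in tooth and -1.01 in skin (scaled log2), 5.80-fold higher in tooth, and its second probe differed by -2.90. Sox17, an endothelial SoxF gene, differed by -1.01 by its brightest probe, barely 2-fold. Its second probe read -1.12 in tooth and -4.86 in skin, where it was not well above background. The difference of this probe as measured was -3.75. With spike-in scaling the differences by the brightest probes were -3.16 for Sox11 and -1.63 for Sox17. Because that scaling changes every difference by -0.62, it could not have reversed a gene higher in tooth.

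Higher in skin were the neural crest and Schwann cell gene Sox10 (9.27-fold, difference 3.21) and the endothelial genes Sox7 (5.11-fold, 2.35) and Sox18 (2.41-fold, 1.27). With spike-in scaling Sox18 was at 0.64, under 2-fold. Sox15 and Sox6 were well above background in skin only, at least 4.65-fold and at least 2.41-fold higher there under 75th percentile scaling. Sox4, Sox12, Sox13 and Sox9 lay within 2-fold, at 0.21, -0.20, 0.29 and 0.40, and all but Sox12 changed sign with spike-in scaling. Sox8, Sox30 and Sry did not rise well above background in tooth or skin.

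Sox5, a SoxD gene of cartilage, cannot be given a level. The probe that stood for it by brightness read 31063 in tooth and 31401 in skin, whereas its other probes read 24.1 and 8.93 in tooth and 19.1 and 10.4 in skin. The bright probe consists of purines only, as do 23 of 55675 probes, and the array annotation places 27 of its 60 bases on the genome, at chr6:143776945-143776971 on the minus strand. Its sequence is shown because it is mostly a GGA repeat, unlike the SoxB probes.

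Sox5 bright probe: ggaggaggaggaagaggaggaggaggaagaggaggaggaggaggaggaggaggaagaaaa

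**Figure D3:**
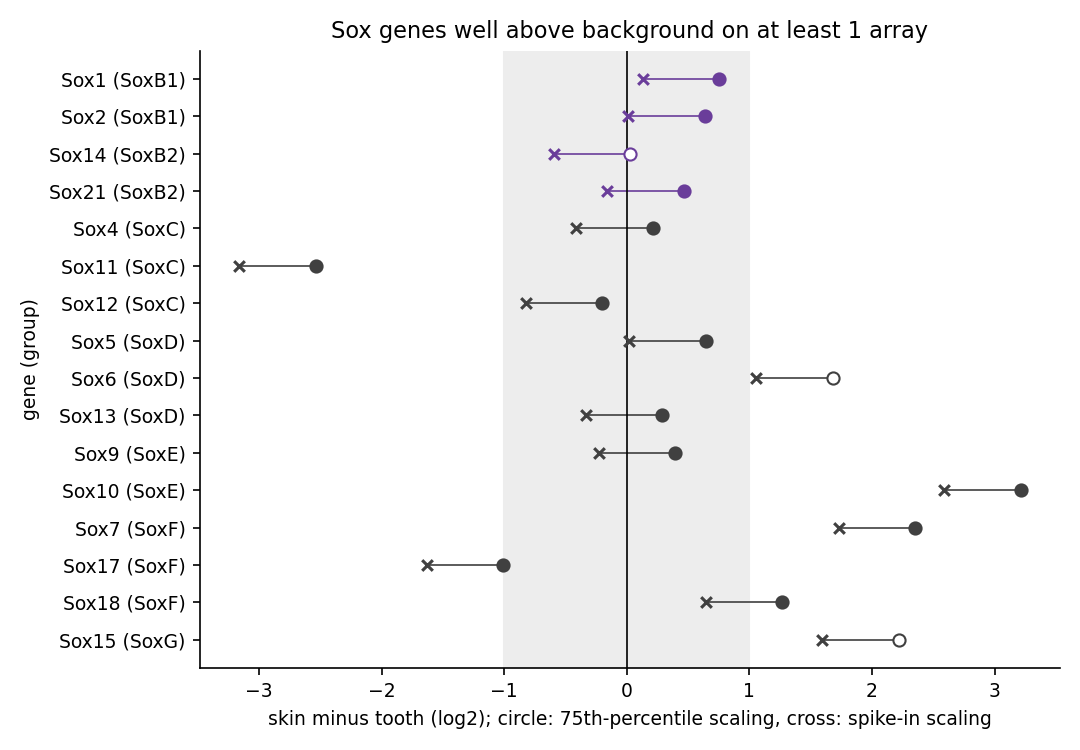
Skin minus tooth difference (log2) of the 16 Sox genes well above background on at least 1 array, SoxB in purple, with 75th percentile scaling (circles, open where 1 array was not well above background) and spike-in scaling (crosses). The shaded band spans 2-fold in either direction. Each gene is shown by its brightest probe. So shown, the 4 SoxB genes lie inside the band under both scalings, although Sox14 had no measurable fold. Sox1 probe 2, not shown, was at -1.14 with spike-in scaling. Sox11 lies furthest to the tooth side and Sox10 furthest to the skin side.

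Among the 23 genes of the Sox, partner and hedgehog lists measured on both arrays, those with a difference nearest to that of Sox21 (0.47) were Sox9 (0.40), Sox2 (0.64) and Sox13 (0.29). This likeness is over 2 arrays, and 1210 named genes lay within 0.1 of Sox21, so it does not single these genes out.

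Of 7 partner factors, 3 were detected, against 71.8% of all named genes, and 1 passed 2-fold toward skin and 0 toward tooth, against 14.2% and 15.5% of measured named genes. Pou3f1, a POU factor of differentiating keratinocytes and Schwann cells, read -1.77 in tooth and 4.46 in skin, 74.98-fold higher in skin (5.60 as log2 with spike-in scaling). The ubiquitous Pou2f1 differed by -0.25. The probes of Pou3f2, a neural partner of Sox2, disagreed: the brightest differed by 0.87, and the other probes, detected in tooth alone, by -1.90 and -1.94. Pou3f3, Pou3f4, Pou5f1 and Pax6 were detected in neither tissue.

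The hedgehog pathway was included because the study examined Sox21 downstream of Shh. All 9 of its listed genes were detected in tooth or skin, against 71.8% of all named genes. Of these, 4 were at least 2-fold higher in tooth (6 with spike-in scaling) and 0 in skin, against 15.5% and 14.2% of measured named genes, with a median difference of -0.50 against -0.04 over all measured named genes. The ligand Shh read 2.61 in tooth and -0.38 in skin, 7.96-fold higher in tooth, a direction that Sox21 did not share under 75th percentile scaling. The ligand Dhh (-1.14), the inhibitor Hhip (-1.06) and the effector Gli3 (-1.57) were the others past 2-fold. Ihh was detected in tooth alone, where it was at least 1.21-fold higher, and its difference as measured was -0.39 (-1.01 with spike-in scaling).

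The receptor and activators, which read the signal out, lay within 2-fold by their brightest probes under 75th percentile scaling. The signal transducer Smo differed by -0.50, the receptor Ptch1 by 0.15, and the transcription factors Gli1 and Gli2 by -0.18 and 0.82. With spike-in scaling Smo passed 2-fold at -1.13 by its brightest probe. Ptch1 changed sign (-0.47), and its dimmer probe differed by -0.26, so its direction depended on the probe and the scaling. Under 75th percentile scaling the dimmer probe of Smo differed by -0.006. That of Gli1 differed by 0.34, opposite in sign to its brightest probe.

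**Figure D4:**
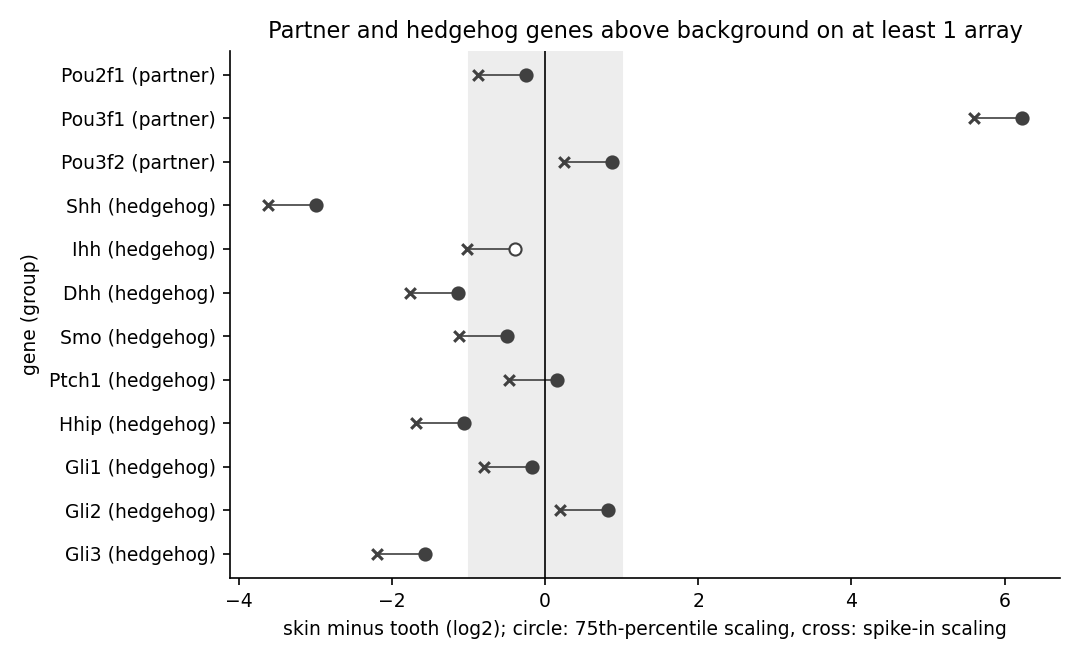
Skin minus tooth difference (log2) of the partner and hedgehog genes well above background on at least 1 array, with 75th percentile scaling (circles, open where 1 array was not well above background) and spike-in scaling (crosses). The shaded band spans 2-fold in either direction. Pou3f1 lies far to the skin side at 6.23, and Shh lies furthest to the tooth side at -2.99.

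Markers of ameloblasts, odontoblasts, epidermis and the hair cuticle and cortex separated the arrays as their labels state. All 7 ameloblast markers were well above background in tooth and 1 of them in skin, with a median difference of -10.66, and Amelx and Ambn were at least 16383-fold and at least 9604-fold higher in tooth. The 3 odontoblast markers were well above background in tooth only. The 5 epidermal markers had a median difference of 9.11, and the 6 markers of hair cuticle and cortex one of 3.62, with Krt35 1415-fold and Krt85 2.02-fold higher in skin by their brightest probes. The 3 probes of Krt85 disagreed in size, at 1.01, 3.46 and 9.22 (log2), and the first was at 0.39 with spike-in scaling. Sox21 lay within 2-fold between these arrays while ameloblast and hair shaft markers moved in opposite directions, and the part of each cell type in the Sox21 signal was not tested.

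For Sox2, the 5 markers of dental epithelial stem cells went strongly both ways, from -4.46 to 4.57 with 3 higher in tooth and 2 in skin (median -0.27). Their brightest members Igfbp5 and Bmi1 were 10.4-fold and 1.20-fold higher in tooth. The 6 dermal papilla markers ranged from -7.04 to 4.35 (median -0.91), the upper end from a gene not well above background in tooth. The brightest, Vcan and Alpl, were at -0.16 and -7.04. As a base for the marker counts that follow, 15181 of the 24103 named genes were detected in both tissues, and 71.8% in 1 tissue or more. Of 6 Merkel cell markers on the array, 2 were well above background on both arrays, 3 in skin only and 1 in tooth only. These 6 ranged from -4.07 to 5.07 (median 1.38), with values not well above background taken as measured. The 3 found in skin only were Atoh1, Krt20 and Gfi1. Under 75th percentile scaling they were at least 8.62-fold, 16.1-fold and 2.58-fold higher there. The brightest, Krt18 and Krt8, were at -2.73 and -0.58. Of the neural markers, 5 of 6 were well above background on both arrays (median 0.05, Snap25 0.05, Tubb3 -3.17), and of the Schwann cell markers 5 of 6 on at least 1 (median 0.31, S100b -2.39, Sox10 3.21). The part of these cell types in the signals of Sox1, Sox2 and Sox14 was not tested.

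The surroundings of the genes were read from the array annotation. Within 100 kb of the SoxB probes lay 23 probes of other features, 11 of them near Sox2 and 0 near Sox14, and 5 were detected in tooth or skin. Of all probes, 56.7% were well above background in tooth and 52.5% in skin. All 6 of the long non-coding probes lay near Sox2, and 1 of 6 was detected, against 40.6% of all long non-coding probes. It lies 25.6 kb beyond the Sox2 probe, at chr3:34576423-34576482 on the plus strand, and read 23.7 in tooth and 35.0 in skin, a scaled difference of 1.19. The other probes of the same annotated region were not well above background, and neither was the probe of Sox2ot, the non-coding transcript that overlaps Sox2. The detected probe is printed because it alone of the 6 was well above background. Its 3′ part consists almost only of A and C, and the part of this in its signal was not tested. By the lenient call, signal significantly above background, 4 of the 6 were detected. The share of all long non-coding probes by that call is not given.

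Non-coding probe near Sox2: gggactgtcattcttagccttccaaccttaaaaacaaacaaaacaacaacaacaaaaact

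An unnamed probe 74.8 kb beyond Sox2 read 94.0 in tooth and 202 in skin (difference 1.74). Near Sox21, Gpr180 (69.9 kb away) was detected in tooth only, at 36.4 against 16.3, and Gm9376 (32.5 kb away) in skin only, at 26.4 against 8.25. Near Sox1, a probe of Gm5607 36.8 kb away was detected in skin only, at 27.1 against 16.3. The brightest skin negative control read 27.0, above the skin value of Gm9376 and about level with that of this Gm5607 probe. Another Gm5607 probe, 27.3 kb away, was detected in neither tissue, at 19.7 in tooth and 13.4 in skin. The 3 probes around Sox3 were all between 4.11 and 5.51, so no signal was detected around Sox3 either.

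**Figure D5:**
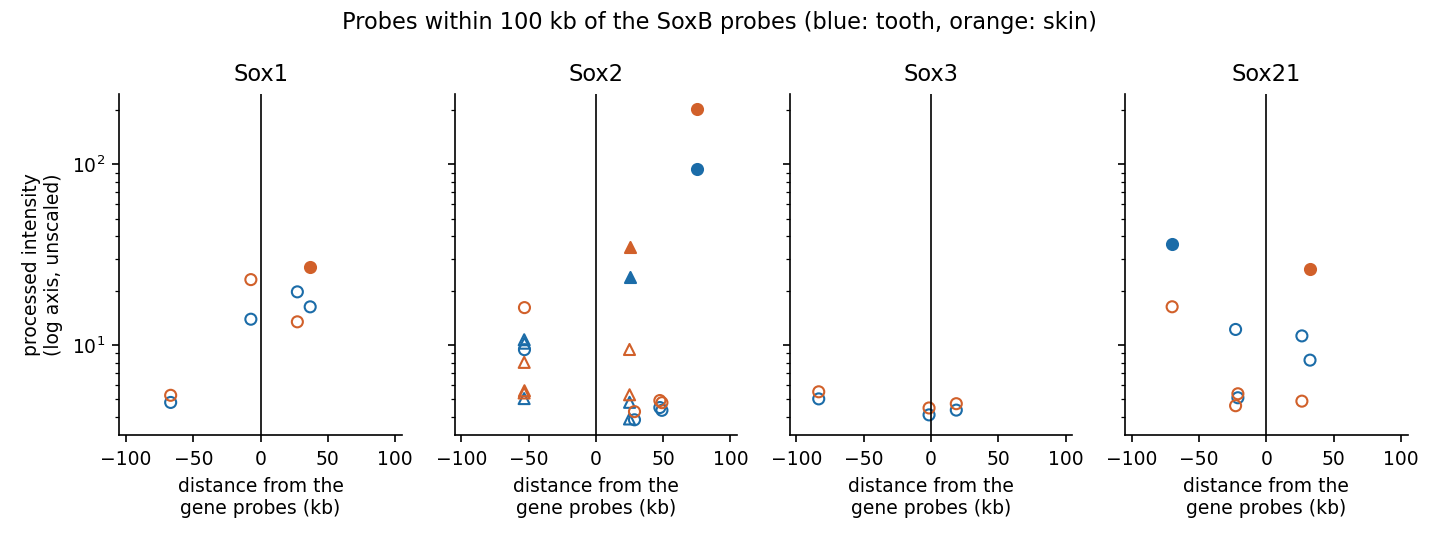
Processed intensity (log axis, not scaled between arrays) of the probes within 100 kb of the Sox1, Sox2, Sox3 and Sox21 probes, against their distance in kb, positive toward higher coordinates. Triangles are long non-coding probes and circles other probes, filled where well above background. Most symbols are open, and the filled ones include an unnamed probe 74.8 kb from Sox2 (94.0 and 202) and Gpr180 near Sox21 in tooth (36.4).

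The promoters, 300 bases each in RefSeq's GRCm38.p6 annotation and given for all members except Sox3, shared a base composition. GC content was 70.7% for Sox1, 66.3% for Sox2, 66.0% for Sox14 and 65.7% for Sox21, above the upper quartile of 61.7% over 32851 promoters. They held 37, 27, 26 and 22 CG dinucleotides against a median of 7. The POU octamer ATGCAAAT, searched on both strands, occurred in the Sox1 promoter and in 1.74% of all promoters. The letters of a SOX site (CATTGT, 12.6% of all promoters), a GLI site (GACCACCCA, 0.253%) and a TATA box (TATAAA, 13.6%) were in none of these 4 windows.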

How the data were processed

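Column-purified total RNA had been labelled with cyanine 3, per the labels. The deposited spot values were intensities from Agilent Feature Extraction (version 10.7.3.1), which had subtracted background, removed trends within the array and replaced very dim values, and gave yes-or-no calls. The authors' value table held a ratio of each processed intensity to 1 factor per array, on a linear scale and not centred by gene. The study's methods name GeneSpring with a percentile shift.

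Here spots called outliers were removed, spots of 1 probe averaged as log2 values, and each array's 75th percentile over non-control probes subtracted. Differences are skin minus tooth (1 array each). A probe was well above background when over 50% of its spots had that call. The brightest probe on average stood for a gene. A gene dim on 1 array has a bound against the lowest signal called well above background there, or its own value if higher. Each SoxB probe had 1 spot. As a gauge of spot scatter, the 288 probes with 8 or more detected spots in tooth had a median SD of 0.08 (log2), and the 273 in skin 0.09. The number of arrays limits the precision.

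All SoxB probes and Sox genes were named, as were detected partner and hedgehog genes and at most 2 genes per marker list, by mean signal. The Sox5 probes, the neighbouring probes and the Merkel cell genes found in skin only were singled out after their values were seen. The members and lists were chosen with earlier results of these data known. Alternatives were median, spike-in and quantile scaling, normexp (offset 50, limma 3.58.1, R 4.3.3), the authors' table, the mean over probes, no filter, a lenient call, and other folds and windows. Python 3.11.15 with pandas 2.3.3 and numpy 2.4.6 was used, and scripts were tested on simulated data. Some list members are not reported here.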

Additional observations from a re-analysis of the deposited data

How the results depend on the processing

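Sox21 differed by 0.47 (log2, skin minus tooth), by 0.22 with median scaling, by 0.33 as the mean over its probes, and reversed to -0.16 with spike-in scaling. Sox2 moved from 0.64 to 0.39 with median, 0.37 with quantile and 0.014 with spike-in scaling, and to 0.52 with normexp. The cause was not tested beyond the scaling shift given above. The other alternatives moved either by less than 0.12, the SD of a difference between arrays from spot scatter. For Sox1, whose alternatives were chosen after seeing the data, the mean over the opposed probes was 0.12. The number of SoxB genes detected was 4, or 5 with the lenient call, for which the share of all named genes is not given. Without a filter all 5 count by construction, so that setting says nothing about detection. Of the other Sox genes, 1 in place of 2 was at least 2-fold higher in tooth with the authors' table, where the brightest Sox17 probe fell under the threshold. At 4-fold the counts were 1 in tooth and 3 in skin, and the share of all named genes past 4-fold is not given. Of the non-coding probes near SoxB genes, 1 of 6 within 100 kb and 8 of 31 within 200 kb were detected. The share over all long non-coding probes was 40.6%. With the lenient call 4 of 6 were detected within 100 kb, and no share over all such probes is given for that call. No paired analysis was possible because each tissue had 1 array, and for the same reason no replicate could be left out. Signal over background limits Sox2, Sox3 and Sox14, which lie near the negative controls.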
